A study of Mus musculus with 10 samples.

Results

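The colorectum of mice on day 4 of dextran sodium sulfate (DSS) with a control miRNA, labelled NC-miR_4d, is set here against that of mice labelled normal. Bulk mRNA was sequenced in 2 libraries per group, 4 of the 10 libraries of the series. The genes described are the 12718 of 23284 annotated features that lay above the lowest reportable value, the floor, in both libraries of either group. Of these, 12218 were above it in all 4 libraries, 68 in both NC-miR_4d libraries with both normal libraries at the floor, 112 in both normal libraries with both NC-miR_4d libraries at the floor, and 320 had 1 library of the other group at the floor. A further 333 features were tested because they passed in another group of the series.

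All mice were BALB/c, 7 weeks old. NC-miR_4d mice received 2% DSS and NC-miR, loaded in super carbonate apatite (sCA), through the tail vein once a day from day 1 to day 3, with tissue taken on day 4. Normal mice had no treatment and gave tissue on day 0. DSS is a sulfated polysaccharide that injures the colonic epithelium and is used to provoke colitis in mice. sCA is a carbonate apatite carrier for nucleic acids. The normal mice had neither DSS, carrier, miRNA nor injection, and the labels used here give no hour of tissue collection, so the contributions of these to a difference cannot be told apart. Whether each library is 1 mouse or a pool is not stated. The p-values rest on the spread between libraries within groups, shared over all 5 groups of the series and not taken from these 4 libraries alone.

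The colonic mucosa is a single layer of epithelial cells over immune, stromal and muscle tissue. Absorptive colonocytes take up salt, water and short-chain fatty acids, goblet cells secrete the mucus that holds bacteria away, and lymphoid follicles in the wall hold B cells. Type I interferons act through a receptor and the transcription factors it activates to switch on antiviral genes, many of which carry an interferon-stimulated response element in their promoters. The circadian clock runs in most of these cells as a loop in which BMAL1 (Arntl) with CLOCK or NPAS2 activates E-box genes, among them the PER, CRY and REV-ERB repressors that feed back on it.

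Values were deposited on a log2 scale, relative to a reference level set for every gene, and so they show how far libraries differ on a gene and not how much of it there was. The files hold no read counts and the depth is unknown. The 4 libraries had 12680 to 12940 features above the floor (12834 and 12680 in NC-miR_4d, 12759 and 12940 in normal). The 2 libraries of a group differed by a median of 0.199 (log2) in NC-miR_4d over 12404 features and 0.179 in normal over 12532, and by more than 1 for 2.28% and 1.19% of them. Markers of the labelled tissue were present: 10 of 10 pan-epithelial, 8 of 8 colonocyte, 7 of 7 goblet cell and 12 of 12 smooth muscle genes found were above the floor. In bulk tissue, fewer cells of a type and less RNA per cell cannot be told apart, which holds for every result here.

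On day 4, 50 features passed limma at an adjusted p under 0.05, 35 higher (0.268% of 13051 tested) and 15 lower (0.115%), or 0.383% in all. They were led by genes of the circadian clock, in both directions, and by genes induced by type I interferon, which were all higher. Of the 50, 11 belonged to the 3 clock lists (7 higher, 4 lower, of 32 genes above the floor) and 9 to the 4 type I interferon lists (9 higher of 55). All lists were chosen with earlier results of these data known, so counts within them are descriptions and not tests of enrichment. The median difference over all 12718 genes was -0.037, and 1985 features had an unadjusted p under 0.05, 799 higher and 1186 lower. In 2664 of the 12718 genes (20.9%) both NC-miR_4d libraries lay above both normal libraries, and in 3508 (27.6%) below both.

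**Figure D1:**
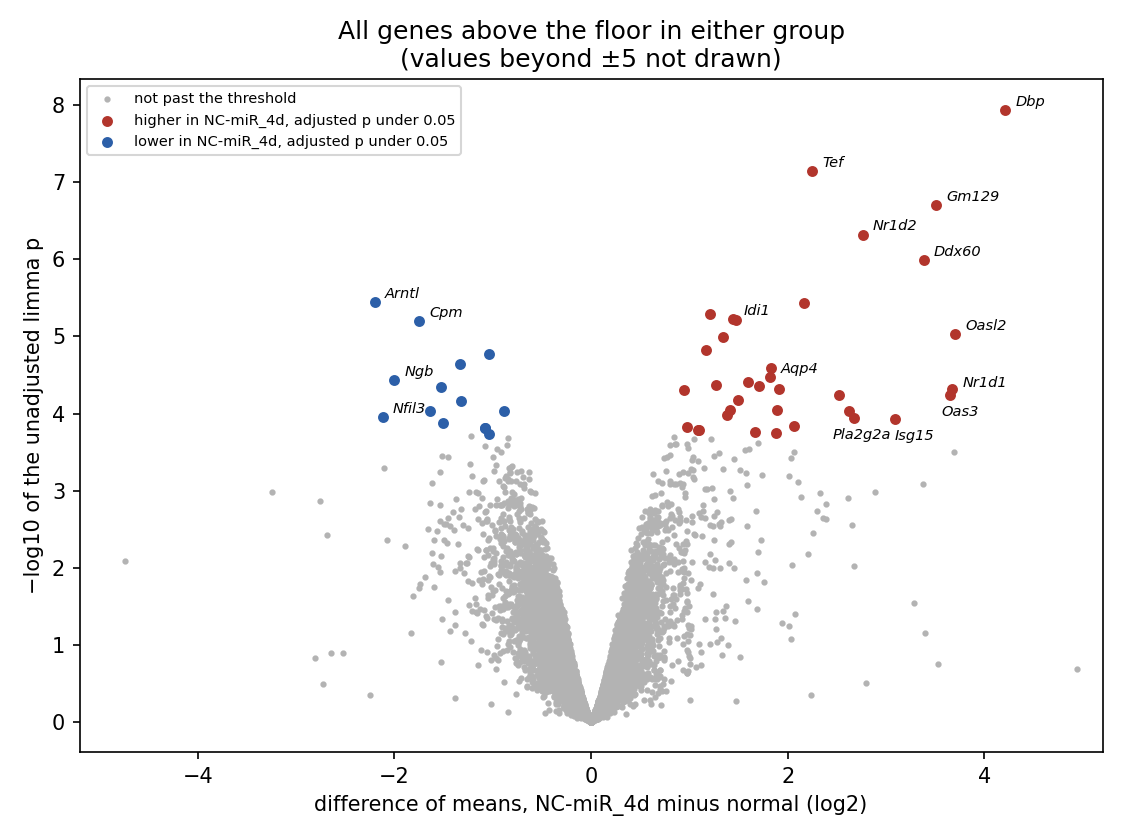
Each point is 1 of 12713 genes above the floor in either group. The x axis is the difference of group means, NC-miR_4d minus normal, in log2, and the y axis is −log10 of the unadjusted limma p. Red and blue points passed an adjusted p under 0.05. Dbp, Tef, Gm129, Nr1d2 and Ddx60 stand highest, on the side of higher values in NC-miR_4d, and 5 features beyond 5 log2 are not drawn.

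The clock genes held the smallest p-values of the comparison, and 11 of the 32 were called (34.4%, against 0.383% of all features tested). Since these lists were chosen with earlier results of these data known, the 2 shares do not test enrichment. Dbp, a transcription factor of the PAR bZIP family that carries clock output to its target genes, had values of 1.11 and 1.44 in the NC-miR_4d libraries, against -2.88 and -2.99 in the normal libraries. Both NC-miR_4d libraries were far above both normal libraries, and the gaps within each group were small. The difference was 4.21 ± 0.19 (limma standard error, n = 2 per group), or 18.6-fold (limma adjusted p = 0.000148). In GRCm38.p6, by RefSeq, Dbp lies at chr7:45705100-45710203 and Arntl, on the same chromosome, at chr7:113178471-113314126. Tef, a second PAR bZIP factor, had 0.68 and 0.85 in NC-miR_4d, against -1.49 and -1.47 in normal, a difference of 2.25 ± 0.13 (adjusted p = 0.00046). Again the groups were well apart, with near-equal normal libraries. Other reported output genes were weaker. Ypel2 fell by 1.53 ± 0.20 (adjusted p = 0.024), with -0.86 and -0.73 in NC-miR_4d and 0.75 and 0.72 in normal. Usp2, a deubiquitinase, and Hlf, the third PAR bZIP factor, differed by 1.23 ± 0.24 and 0.57 ± 0.22 without passing (adjusted p = 0.0857 and 0.277). Of the 15 output genes, 2 rose and 1 fell, with a median of 0.465.

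Among the repressors of the loop, 5 of 13 rose and 1 fell, with a median of 1.03. Nr1d1, which encodes REV-ERB alpha, had 0.91 and 0.72 in NC-miR_4d, against -2.0 and -3.71 in normal. The normal libraries lay 1.71 apart, yet both were below both NC-miR_4d libraries, and the difference was 3.67 ± 0.48 (adjusted p = 0.024). Nr1d2, its close relative REV-ERB beta, had 0.58 and 0.93, against -1.75 and -2.25 (2.76 ± 0.20, adjusted p = 0.00155). Gm129, now named Ciart or Chrono, which encodes a repressor of BMAL1, had 1.05 and 1.51 in NC-miR_4d, while both normal libraries were at the floor. It was therefore at least 11.4-fold higher (adjusted p = 0.000855), and since libraries at the floor hardly vary, such p may be too small. The period genes moved the same way. Per2 had 0.99 and 0.82 in NC-miR_4d, against -0.80 and -0.58 in normal (1.60 ± 0.20, adjusted p = 0.024), and Per3 had 0.62 and 0.51, against -0.85 and -0.96 (1.47 ± 0.15, adjusted p = 0.00749). Per1 (1.14 ± 0.25, adjusted p = 0.104) and Bhlhe40 (1.03 ± 0.24, adjusted p = 0.119), also a repressor at E-boxes, did not pass, although their groups did not overlap. Nfil3, which competes with the PAR bZIP factors for D-boxes, went the other way, with -0.75 and -0.93 in NC-miR_4d, against 1.36 and 1.20 in normal (-2.12 ± 0.31, adjusted p = 0.038). Cry1 had -0.09 and -0.25, against 0.87 and 1.28 (-1.24 ± 0.25), with an adjusted p of 0.0886.

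The activators lay lower. Arntl, which encodes BMAL1, had -0.48 and -1.13 in NC-miR_4d, against 1.30 and 1.48 in normal. Both NC-miR_4d libraries were below both normal libraries, and the gene fell by 2.2 ± 0.20, or 4.58-fold (adjusted p = 0.00685). Npas2, a partner of BMAL1, had -0.31 and -0.51, against 0.95 and 0.87 (-1.32 ± 0.18, adjusted p = 0.0292). Clock itself had 0.02 and 0.18 in NC-miR_4d and 0.22 and 0.37 in normal, a difference of -0.20 ± 0.20 that did not pass (adjusted p = 0.678). Over the 4 activators above the floor the median was -0.95, and each had both NC-miR_4d libraries below both normal libraries (background 27.6%).

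**Figure D2:**
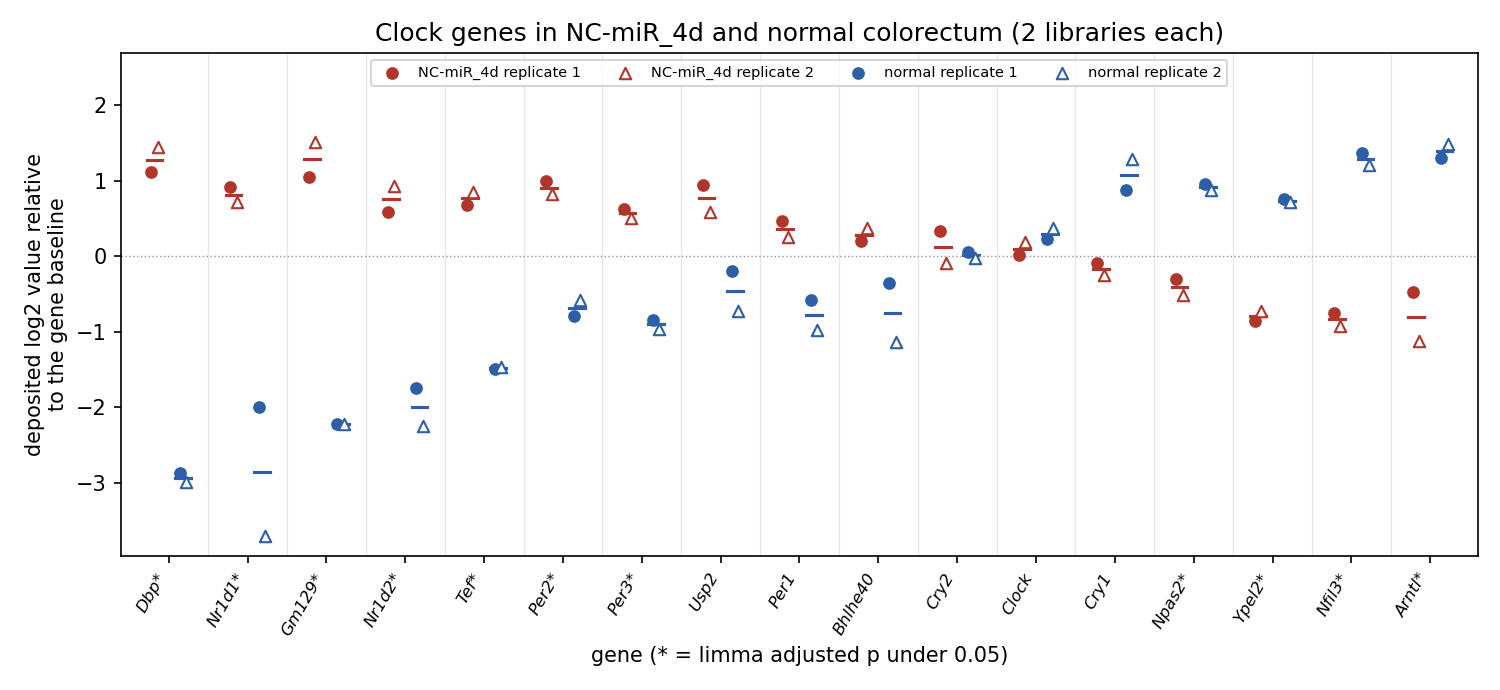
Deposited log2 values of 17 clock genes (x axis) in each library, with NC-miR_4d in red at the left and normal in blue at the right of each gene. Circles are replicate 1, triangles replicate 2 and bars group means, and an asterisk marks an adjusted p under 0.05. Genes at the left, from Dbp to Per3, are high in both NC-miR_4d libraries and low in both normal libraries, and Npas2, Ypel2, Nfil3 and Arntl at the right show the reverse.

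Dbp, Tef, Gm129 and Nr1d2 kept their calls whichever of the 10 libraries of the series was left out. Arntl lost its call without either normal library (highest adjusted p = 0.102). Per3 lost its own without NC-miR_4d replicate 1 or either normal library (0.102). Per2 and Ypel2 did so without any 1 of the 4 libraries compared (0.143 and 0.189). Nfil3 did so without any 1 of these 4 or a miR-29a library (0.212), Npas2 without these or a miR-29b library (0.19), and Nr1d1 without normal replicate 2, either NC-miR_4d library or any miR-29 library (0.117). With normal replicate 2 left out, the difference of Nr1d1 was 2.82. Over the 3 lists, 4 rose and 1 fell without NC-miR_4d replicate 1, 5 rose and 1 fell without NC-miR_4d replicate 2, 5 rose and 0 fell without normal replicate 1, and 4 rose and 0 fell without normal replicate 2.

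The promoters of 4 called clock genes are printed because they hold the elements through which the loop is known to act. Each is the 250 bases before a transcript start, on the gene's strand, from RefSeq on GRCm38.p6. Capitals mark an E-box (CACGTG) in Gm129 and Tef, a D-box (TTANGTAA) in Per3 and a ROR element (TAGGTCA or TGGGTCA, here on the opposite strand) in Nfil3, the site shared by ROR and REV-ERB.
Gm129, chr3:95882229-95882478, minus strand: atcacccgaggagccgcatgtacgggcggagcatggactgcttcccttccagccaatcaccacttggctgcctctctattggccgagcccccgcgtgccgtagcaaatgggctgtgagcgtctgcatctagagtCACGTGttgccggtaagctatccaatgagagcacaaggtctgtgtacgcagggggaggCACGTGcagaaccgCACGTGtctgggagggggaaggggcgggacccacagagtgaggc
Tef, chr15:81802423-81802672, plus strand: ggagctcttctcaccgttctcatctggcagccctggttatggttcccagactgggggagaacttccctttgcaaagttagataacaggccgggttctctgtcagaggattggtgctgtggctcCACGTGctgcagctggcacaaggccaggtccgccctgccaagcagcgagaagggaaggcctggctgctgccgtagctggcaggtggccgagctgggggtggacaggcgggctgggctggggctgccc
Per3, chr4:151044666-151044915, minus strand: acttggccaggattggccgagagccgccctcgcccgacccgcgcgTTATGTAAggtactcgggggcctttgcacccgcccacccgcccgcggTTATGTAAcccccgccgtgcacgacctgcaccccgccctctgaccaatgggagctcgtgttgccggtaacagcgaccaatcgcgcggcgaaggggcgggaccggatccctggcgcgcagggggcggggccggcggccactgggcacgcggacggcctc
Nfil3, chr13:52981040-52981289, minus strand: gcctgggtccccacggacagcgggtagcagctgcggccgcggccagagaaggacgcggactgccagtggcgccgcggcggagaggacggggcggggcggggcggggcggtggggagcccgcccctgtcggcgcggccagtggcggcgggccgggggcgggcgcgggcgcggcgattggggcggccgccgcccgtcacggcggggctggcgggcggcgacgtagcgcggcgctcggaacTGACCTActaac
Gm129 has 3 E-boxes and Per3 has 2 D-boxes. Searched on both strands, an E-box was found in 4 of 10 clock repressor genes with a promoter in RefSeq's table, in 0 of 3 activators, in 3 of 14 output genes and in 2 of 10 called clock genes, against 6.86% of 27025 genes. The D-box was in 1 of 10 called clock genes and 2.44% of all genes, and the ROR element in 1 of 10 and 6.15%. A match is a description of these letters and not evidence of binding.

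Interferon-induced genes formed the second large group. Of 55 genes in the 4 type I interferon lists, 9 rose and 0 fell, 46 had both NC-miR_4d libraries above both normal libraries (background 20.9%), and the median was 1.12. Oasl2, a 2′,5′-oligoadenylate synthetase-like antiviral protein, had 0.94 and 0.43 in NC-miR_4d, against -2.80 and -3.24 in normal. The groups were more than 3 log2 apart, and the difference of 3.70 ± 0.39 was 13-fold (adjusted p = 0.0101). Oas3, which makes the 2-5A messenger that activates RNase L, had 1.16 and 0.25, with both normal libraries at the floor, and was at least 12.6-fold higher (adjusted p = 0.026). A further 3 effectors of the list passed. Rtp4 had 0.57 and 0.26, against -2.18 and -2.24 (2.62 ± 0.37, adjusted p = 0.0338). Ifi27l2a had 0.53 and -0.33, against -2.44 and -2.39 (2.52 ± 0.33, adjusted p = 0.026). Xaf1, a proapoptotic partner of XIAP, had 0.39 and -0.01, against -1.71 and -2.03 (2.06 ± 0.31, adjusted p = 0.0445). In each, replicate 1 of NC-miR_4d was the highest library. In all, 5 of 32 effectors rose, 28 had groups that did not overlap (background 20.9%) and the median was 1.31. Both normal libraries were at the floor for 5 of the 32, also counted among the 55, and these could lie only above normal. Ifit1, which binds viral RNA lacking cap methylation, had 0.89 and 0.24, against -2.68 and -3.57. Its difference of 3.69 ± 0.62 did not pass (adjusted p = 0.0598), nor did those of Ifi44 and Oas2, which were at least 3.37 and 2.89 (log2) above normal libraries at the floor (adjusted p = 0.0801 and 0.0886).

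Of the sensors of foreign nucleic acid, Ddx60, a helicase that promotes RIG-I signalling, had 0.89 and 0.49 in NC-miR_4d, against -2.35 and -3.03 in normal. It rose by 3.38 ± 0.27, or 10.4-fold (adjusted p = 0.00267), and was the 1 call among 11 sensors (0.268% of all features tested were called higher). Of the 11, 9 had both NC-miR_4d libraries above both normal libraries (background 20.9%), and the median was 0.804. Zbp1 (2.06 ± 0.35, adjusted p = 0.0598) and Ifih1, which encodes MDA5 (1.02 ± 0.19, adjusted p = 0.0745), did not pass. Of 7 transcription factors, Irf7, the amplifier of interferon production, rose by 1.88 ± 0.29 (adjusted p = 0.0475), with 0.49 and -0.18 in NC-miR_4d and -1.61 and -1.84 in normal. Irf9 (1.45 ± 0.25) and Stat2 (1.03 ± 0.30) did not pass (adjusted p = 0.0627 and 0.181), although the groups of each were apart. Of the 7 factors, 4 lay above both normal libraries (background 20.9%) and 2 below both (background 27.6%). Irf1, a target of interferon gamma, had -0.02 and -0.11 in NC-miR_4d and 0.04 and -0.07 in normal.

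The ISG15 system, which conjugates a ubiquitin-like protein to others, had the highest median of these lists, 1.89 over 5 genes. All 5 had both NC-miR_4d libraries above both normal libraries (background 20.9%). Isg15 had 0.59 and -0.13 in NC-miR_4d, against -2.68 and -3.04 in normal (3.09 ± 0.45, 8.51-fold, adjusted p = 0.0383). Herc6, the mouse ligase of ISG15, had 0.69 and 0.26, against -1.49 and -1.34 (1.89 ± 0.27, adjusted p = 0.0338). The deconjugating enzyme gene Usp18 had a large but variable difference, 2.21 ± 0.62 (adjusted p = 0.171).

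The GTPases of the GBP and IRG families, best known as targets of interferon gamma, had a median of 1.17. All 14 above the floor had both NC-miR_4d libraries above both normal libraries (background 20.9%). Of them 0 passed limma, and 8 were higher at an unadjusted p under 0.05 (799 of all 12718 genes). For 2 of the 14 both normal libraries were at the floor, so that they were described only through their NC-miR_4d values and could lie only above normal. Igtp had 0.32 and -0.22, against -1.32 and -1.43 (1.42 ± 0.37, adjusted p = 0.145), and Gbp3 had 0.27 and -0.25, against -1.35 and -1.42 (1.40 ± 0.37, adjusted p = 0.15). For genes of class I antigen presentation the median was 0.294, with 9 of 16 apart upward (background 20.9%), 0 called and 5 at an unadjusted p under 0.05. B2m, the shared light chain, had 0.27 and -0.06, against -0.78 and -0.79 (0.89 ± 0.17, adjusted p = 0.0755).

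**Figure D3:**
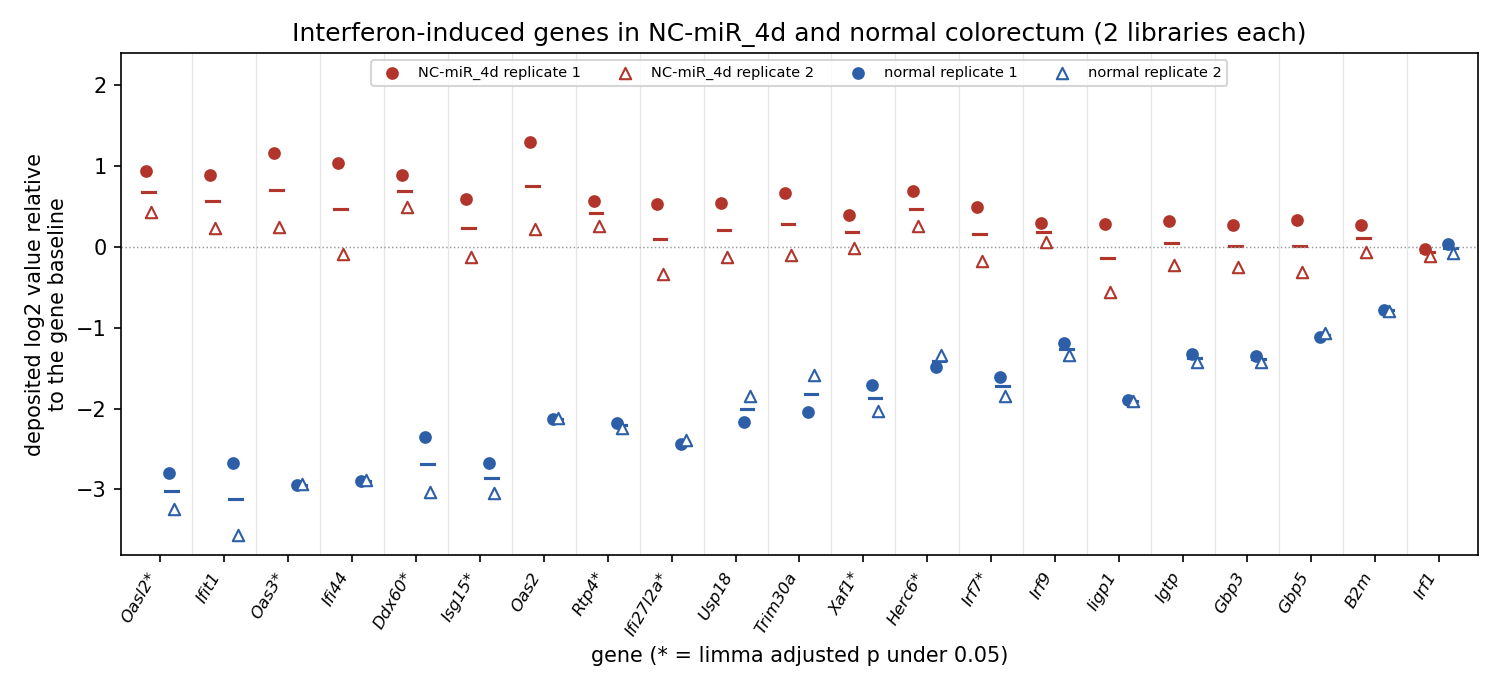
Deposited log2 values of 21 interferon-induced genes (x axis) in each library, with NC-miR_4d in red at the left and normal in blue at the right of each gene. Circles are replicate 1, triangles replicate 2 and bars group means, and an asterisk marks an adjusted p under 0.05. For 20 of them both NC-miR_4d libraries lie above both normal libraries (background 20.9%), and replicate 1 is the higher NC-miR_4d library. Irf1 is the exception in the first respect. The 21 were picked for the figure. In the whole lists, 46 of 55 type I interferon genes, 14 of 14 GTPases and 9 of 16 class I genes lay above both normal libraries.

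The 2 NC-miR_4d libraries were not alike in this group. Replicate 1 was above replicate 2 in 53 of the 55 type I interferon genes and in 14 of 14 GTPases, against 6600 of all 12718 genes. The median over the 55 genes was 1.12 with all libraries, 0.923 without replicate 1 and 1.34 without replicate 2. Replicate 1 also had the highest values, among the 4 libraries, of the squamous epithelium markers described. Of 15 squamous markers 4 were described, with a median of 2.75 in NC-miR_4d replicate 1 and -0.41 in replicate 2, against -0.40 and -0.69 in the normal libraries, and Krt14, a basal keratin, had 6.05 and -0.50, against -0.55 and -0.68. Krt5, Krt1, Krt6a and Lor were above the floor in that library alone of the 10. Other listed markers did not follow: Krt4, Trp63, Ivl, Dsg3 and Sprr3 were at the floor in all 10. Krt13 was above it in 3 of the 10 and Krtdap in 8, among them normal replicate 1. The part of any squamous tissue in the interferon values was not tested. The count of calls over these lists, 9 with all libraries, was 1 without NC-miR_4d replicate 1, 4 without NC-miR_4d replicate 2, 1 without either normal library, 2 without either miR-29a library and 19 without either NC-miR_2d library. Ddx60 kept its call in all 10 fits that left out a library. Oasl2 lost its call without NC-miR_4d replicate 1 or either normal library (highest adjusted p = 0.133). Oas3 and Ifi27l2a did so without these or a miR-29a library (0.195 and 0.19), and Isg15, Rtp4 and Irf7 also without NC-miR_4d replicate 2 (0.227, 0.213 and 0.279). Herc6 and Xaf1 lost theirs without any 1 of the 4 libraries compared or any miR-29 library (0.195 and 0.263).

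Promoters of 3 called interferon genes are printed for the interferon-stimulated response element, in capitals (GAAA, any 2 bases, then GAAA, on either strand, with matches that may overlap), again as the 250 bases before a RefSeq transcript start on GRCm38.p6.
Isg15, chr4:156200819-156201068, minus strand: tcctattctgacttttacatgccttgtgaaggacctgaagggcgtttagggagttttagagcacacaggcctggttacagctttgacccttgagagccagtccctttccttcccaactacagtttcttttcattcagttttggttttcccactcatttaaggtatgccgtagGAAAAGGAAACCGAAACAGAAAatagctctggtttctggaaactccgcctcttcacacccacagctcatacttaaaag
Ddx60, chr8:61927837-61928086, plus strand: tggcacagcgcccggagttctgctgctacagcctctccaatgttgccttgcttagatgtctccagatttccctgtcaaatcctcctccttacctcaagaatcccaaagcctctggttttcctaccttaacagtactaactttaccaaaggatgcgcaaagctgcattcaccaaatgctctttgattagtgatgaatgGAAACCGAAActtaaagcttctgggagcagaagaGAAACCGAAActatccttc
Oas3, chr5:120777660-120777909, minus strand: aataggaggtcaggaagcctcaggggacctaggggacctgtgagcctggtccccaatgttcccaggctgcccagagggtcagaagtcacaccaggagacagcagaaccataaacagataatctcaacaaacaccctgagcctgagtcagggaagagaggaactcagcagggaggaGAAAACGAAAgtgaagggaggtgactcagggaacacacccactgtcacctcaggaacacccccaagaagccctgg
Isg15 has 3 overlapping matches and Ddx60 has 2. The element was present in 12 of 22 antiviral effector genes with a promoter in the table and in 10 of 10 GTPase genes, against 3.46% of 27025 genes. It was in 1 of 7 sensors, 1 of 6 transcription factors, 1 of 4 genes of the ISG15 system and 3 of 14 class I genes. It was in 3 of 7 called interferon genes and 0 of 10 called clock genes.

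Sterol synthesis genes were also higher. Of 25, 2 passed, 20 had both NC-miR_4d libraries above both normal libraries (background 20.9%), 18 had a positive difference at an unadjusted p under 0.05 and the median was 0.652. Idi1, which isomerises isopentenyl diphosphate, had 0.78 and 0.65 in NC-miR_4d, against -0.65 and -0.81 in normal. Its libraries agreed closely within groups, and the difference was 1.44 ± 0.14, or 2.72-fold (adjusted p = 0.00749). Sc4mol, also called Msmo1, the sterol C4-methyl oxidase, had 0.71 and 0.23, against -0.67 and -0.57 (1.09 ± 0.17, adjusted p = 0.0454). Lss, which closes the sterol rings, and Cyp51 differed by 1.25 ± 0.22 and 1.04 ± 0.19 (adjusted p = 0.0625 and 0.0745). Targets of LXR, the receptor for oxidised sterols, leaned the other way, with a median of -0.563 over 9 genes, 6 of them below both normal libraries (background 27.6%), 0 called and 4 at an unadjusted p under 0.05. The cholesterol exporter genes Abcg1 (-1.0 ± 0.17), Abca1 (-0.79 ± 0.19) and Abcg5 (-1.05 ± 0.27) did not pass (adjusted p = 0.0625, 0.126 and 0.142). Idi1 lost its call without NC-miR_4d replicate 1 or either normal library (highest adjusted p = 0.102), and Sc4mol without any 1 library other than NC-miR_4d replicate 2 (0.213). The 12 fatty acid synthesis genes had a median of 0.198, with 0 called and 3 at an unadjusted p under 0.05.

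Of 28 genes of colonocyte transport, 1 rose, 16 lay above both normal libraries (background 20.9%) and 7 below both (background 27.6%), and the median was 0.369. Aqp4, a basolateral water channel, had 1.13 and 0.97 in NC-miR_4d, against -0.86 and -0.67 in normal (1.82 ± 0.22, 3.52-fold, adjusted p = 0.0232). The chloride-bicarbonate exchanger Slc26a3 had 0.22 and 0.39, against -0.58 and -0.62 (0.90 ± 0.18, adjusted p = 0.0801). Aqp8, the apical water channel, had -0.07 and 0.16, against -0.44 and -1.35 (0.94 ± 0.26, adjusted p = 0.167), and the sodium-proton exchanger Slc9a3 was at least 2.39 (log2) above normal libraries at the floor (adjusted p = 0.119). The short-chain fatty acid carrier Slc16a1 and the bicarbonate carrier Slc4a4 were lower, by -0.60 ± 0.15 and -0.95 ± 0.30, and did not pass (adjusted p = 0.138 and 0.201). In the aldosterone-regulated list of 12 genes, the median was 0.356. Of the 12, 1 gene not named here rose, and 6 lay above both normal libraries (background 20.9%). The sodium pump subunit gene Atp1b1 (0.68 ± 0.13) and the sodium channel gene Scnn1a (0.74 ± 0.13) did not pass (adjusted p = 0.08 and 0.0627).

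Other transporters and epithelial genes passed individually. Slc36a1, a proton-coupled amino acid transporter, had 0.50 and 0.87, against -0.96 and -1.33 (1.83 ± 0.22, adjusted p = 0.0184). Slc10a2, the apical sodium-dependent bile acid transporter, had 0.19 and 0.51, against -1.22 and -1.51 (1.71 ± 0.22, adjusted p = 0.024). Xkr9, of a family of phospholipid scramblases, had 0.86 and 0.42, against -1.37 and -0.70 (1.67 ± 0.26, adjusted p = 0.0472). Ccdc116 rose by 1.91 ± 0.25 (adjusted p = 0.024). For all of these the groups were apart by more than their inner gaps. Cpm, the membrane carboxypeptidase M, fell instead, with -0.29 and -0.72 in NC-miR_4d, against 1.10 and 1.39 in normal (-1.75 ± 0.17, 3.37-fold lower, adjusted p = 0.00749), and was the 1 call among 21 brush border and peptidase genes, which had a median of 0.196. Named after their values were seen, further called rises included the hexokinase gene Hk2 (1.27 ± 0.16), the sphingolipid hydroxylase gene Fa2h (1.17 ± 0.13), Btnl1, a butyrophilin-like gene of the gut epithelium (1.49 ± 0.20), Mgat4c (1.34 ± 0.14), Plscr2 (1.38 ± 0.20), Tns4 (1.10 ± 0.17), Rasd2 (0.97 ± 0.15) and Lipo1 (0.94 ± 0.12), and 2 features with provisional names. Of these, 0610005C13Rik, a long noncoding RNA (2.16 ± 0.20, adjusted p = 0.00685), kept its call with each library left out.

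For goblet cell genes the median was 0.354. Both NC-miR_4d libraries exceeded both normal libraries for 12 of 16 (background 20.9%), with 0 called and 8 higher at an unadjusted p under 0.05 (799 of all 12718 genes). Agr2, a disulfide isomerase needed for mucin folding, had 0.29 and 0.06, against -0.12 and -0.27 (0.37 ± 0.15, adjusted p = 0.3), and the transcription factor Spdef differed by 0.66 ± 0.24 (adjusted p = 0.26). Unfolded protein response genes had a median of 0.229, with 17 of 22 above both normal libraries (background 20.9%), 0 called and 5 higher at an unadjusted p under 0.05.

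Pla2g2a was the 1 call among 17 antimicrobial and acute phase genes above the floor, whose median was 0.168. It encodes a secreted phospholipase that attacks bacterial membranes. It is intact in BALB/c and annotated as a transcribed pseudogene in the reference, which comes from a strain with a disrupted copy. The values were 1.29 and 0.78 in NC-miR_4d, against -1.57 and -1.71 in normal (2.67 ± 0.39, 6.37-fold, adjusted p = 0.038), and the call was lost without any 1 of the 4 libraries compared or any miR-29 library (highest adjusted p = 0.227). Saa1, an acute phase protein, had 0.18 and 0.35, against -0.48 and -0.51 (0.76 ± 0.14, adjusted p = 0.0745).

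Most inflammatory cytokine genes were at the floor. Of 26 inflammatory cytokine genes, 7 were above the floor in both libraries of either group and 17 were at the floor in all 4 libraries. Il6, Cxcl5, Reg3b and Nos2 were at the floor in all 4. Cxcl1 and Reg3g were above it in NC-miR_4d replicate 1 alone of the 4, and Tnf in normal replicate 1 alone. The 7 cytokine genes had a median of -0.108, with 0 called and 1 at an unadjusted p under 0.05. Il1b had -0.18 and -0.93 in NC-miR_4d and -0.30 and -0.15 in normal, so the groups overlapped. Of 30 chemokine ligand genes 20 were described and 8 were at the floor in all 4 libraries. The 20 had a median of 0.149, with 0 called and 5 at an unadjusted p under 0.05. Ccl2 had 0.89 and -0.42, against -0.01 and -0.33. Of 14 neutrophil markers found, 3 were described. S100a8, a subunit of calprotectin, had -0.29 and -0.01, against -1.34 and -1.98 (1.51 ± 0.94, adjusted p = 0.475), S100a9 had -1.03 and 0.15, against -0.93 and -1.18, and Retnlg had -0.40 and -0.17, against -0.59 and 0.72 (-0.35 ± 0.51, adjusted p = 0.788). None of these 3 passed, and the libraries of S100a9 and of Retnlg overlapped between groups. From the antimicrobial list, Lcn2, an iron-trapping lipocalin, had -0.09 and -1.08, against -1.48 and -1.05, and also overlapped. A feature at the floor is below what these files report and is not shown to be absent.

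B and plasma cell genes were lower as a group. All 16 above the floor had both NC-miR_4d libraries below both normal libraries (background 27.6%), and each had an unadjusted p under 0.05, but 0 passed the adjustment. The list's median value was -0.24 and -0.27 in the NC-miR_4d libraries, against 1.26 and 1.36 in the normal libraries, and the median difference was -1.51. Fcer2a, the IgE receptor CD23 of follicular B cells, had -0.98 and -0.27, against 2.04 and 2.23 (-2.76 ± 0.58, adjusted p = 0.101). Cd79a, a signalling chain of the B cell receptor, had -1.02 and -0.06, against 1.40 and 1.67 (-2.08 ± 0.53, adjusted p = 0.141), and Ms4a1, which encodes CD20, had -0.20 and -0.13, against 1.32 and 1.35 (-1.50 ± 0.36, adjusted p = 0.121). For Cd79a the gap between the NC-miR_4d libraries was larger than that between the normal libraries. The chemokine receptor Cxcr5 that guides B cells into follicles had -0.12 and -0.46, against 1.40 and 1.11 (-1.54 ± 0.29, adjusted p = 0.0745). Outside this list, Cd72, a coreceptor of B cells, did pass. It had -0.49 and -0.65, against 0.59 and 0.35 (-1.04 ± 0.16, adjusted p = 0.0476), and lost its call without any 1 of the 10 libraries (highest adjusted p = 0.215). Class II antigen presentation genes, which B cells also express, were below both normal libraries in 10 of 11 cases (background 27.6%), with a median of -0.618, 0 called and 7 lower at an unadjusted p under 0.05 (1186 of all 12718 genes). H2-DMb2 had -0.69 and -0.67, against 0.59 and 0.96 (-1.46 ± 0.25, adjusted p = 0.0625), and H2-Aa had -0.25 and -0.66, against 0.04 and 0.34 (-0.65 ± 0.21, adjusted p = 0.209). The part of the B cell markers in these class II values was not tested. T and NK cell markers went both ways, with a median of -0.062, 0 of 11 called, and 2 higher and 4 lower at an unadjusted p under 0.05. Cd2 (-1.21 ± 0.40), Cd3d (-0.63 ± 0.19) and Lck (-0.54 ± 0.18) had adjusted p of 0.216, 0.194 and 0.212, and Gzma, which encodes a granzyme, had 1.70 ± 0.47 (0.167). Macrophage markers had a median of 0.125, with 0 of 16 called, and 3 higher and 1 lower at an unadjusted p under 0.05.

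Genes of cytosolic ribosomal proteins had negative differences in 32 of 32 cases (7021 of all 12718 genes), with a median of -0.333 and 26 below both normal libraries (background 27.6%). Rpl30 was the 1 call. It had -1.61 and -1.56 in NC-miR_4d, against 0.26 and -0.15 in normal (-1.64 ± 0.23, 3.11-fold lower, adjusted p = 0.0338). Rps27 had -1.77 and -0.92, against 1.90 and 1.88, and its difference of -3.24 ± 0.66 did not pass (adjusted p = 0.0886). The next, Rplp1, differed by -0.65 ± 0.19 (adjusted p = 0.184). Processed pseudogenes could share reads with these genes, and how the authors counted shared reads is not given in the sources used here. Within groups the list also moved as 1 block, since NC-miR_4d replicate 1 was below replicate 2 and normal replicate 1 above replicate 2 for all 32, with median values of -0.39 and -0.17, against 0.16 and -0.06.

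**Figure D4:**
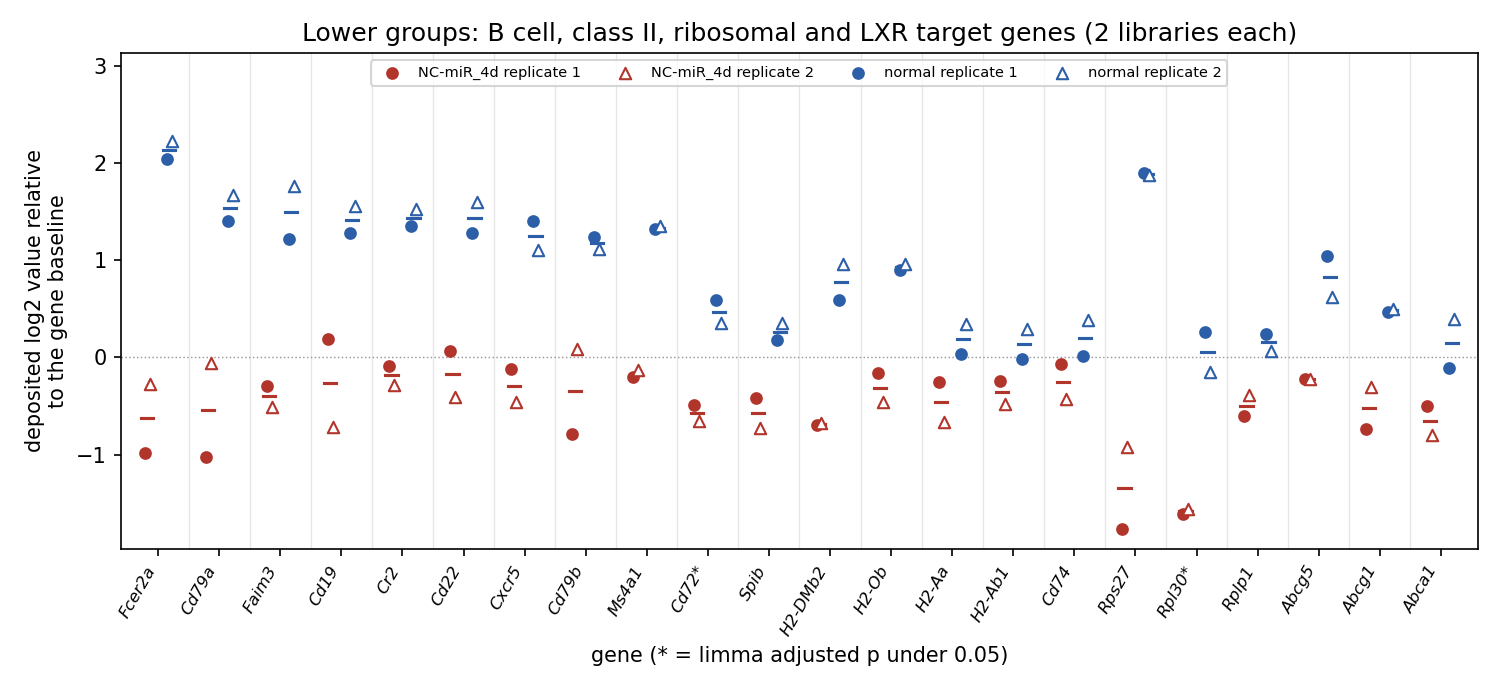
Deposited log2 values of 22 B cell, class II, ribosomal and LXR target genes (x axis) in each library, with NC-miR_4d in red at the left and normal in blue at the right of each gene. Circles are replicate 1, triangles replicate 2 and bars group means. Both NC-miR_4d libraries lie below both normal libraries for each of the 22, which were picked for the figure. In the whole lists this held for 16 of 16 B cell, 10 of 11 class II, 26 of 32 ribosomal and 6 of 9 LXR target genes (background 27.6%). Cd72 and Rpl30, with asterisks, had an adjusted p under 0.05.

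Among the remaining falls, Ngb, which encodes neuroglobin, had -0.52 and -1.31 in NC-miR_4d, against 1.06 and 1.11 in normal (-2.0 ± 0.25, adjusted p = 0.0237). It was the 1 call among 10 enteric neuron and glia markers, whose median was -0.334 (0.047 in replicate 1 and -0.711 in replicate 2 of NC-miR_4d, each minus the normal mean). Bok, a proapoptotic member of the BCL2 family, had -0.43 and -1.03, against 0.68 and 0.88 (-1.51 ± 0.23, adjusted p = 0.0426). It was the 1 call among 20 apoptosis regulators, of which 10 lay below both normal libraries (background 27.6%) and 5 above both (background 20.9%), with a median of -0.263. The proapoptotic BH3-only genes Bbc3 (-1.18 ± 0.26) and Bcl2l11 (-0.89 ± 0.18) did not pass (adjusted p = 0.109 and 0.0845). Tpbg, the trophoblast glycoprotein gene, fell by 0.89 ± 0.13 (adjusted p = 0.0338). Dio3os, a long noncoding RNA antisense to Dio3, was at the floor in both NC-miR_4d libraries and at least 2.06-fold lower (adjusted p = 0.0136). Whether strand was used in counting is not given in the sources used here.

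The largest difference of all called features was in a small nucleolar RNA, a guide of rRNA modification. Snord16a (chromosome 9, 64175432 to 64175522, GRCm38.p6) was at the floor in both NC-miR_4d libraries, with -6.76 and -6.80, against 1.71 and 2.65 in normal. It was at least 498-fold lower (adjusted p = 0.0101), and since libraries at the floor hardly vary, this p may be too small. With 1 library left out the difference ranged from -9.43 to -8.49 (log2). All 5 features beyond 5 log2 were small RNAs with both NC-miR_4d libraries at the floor, and the other 4 (Mir678, Mir3074-1, Snora64 and Snord7) did not pass (adjusted p = 0.125 to 0.415), named after their values were seen. The library kit selects polyadenylated mRNA, per the labels' protocols.

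**Figure D5:**
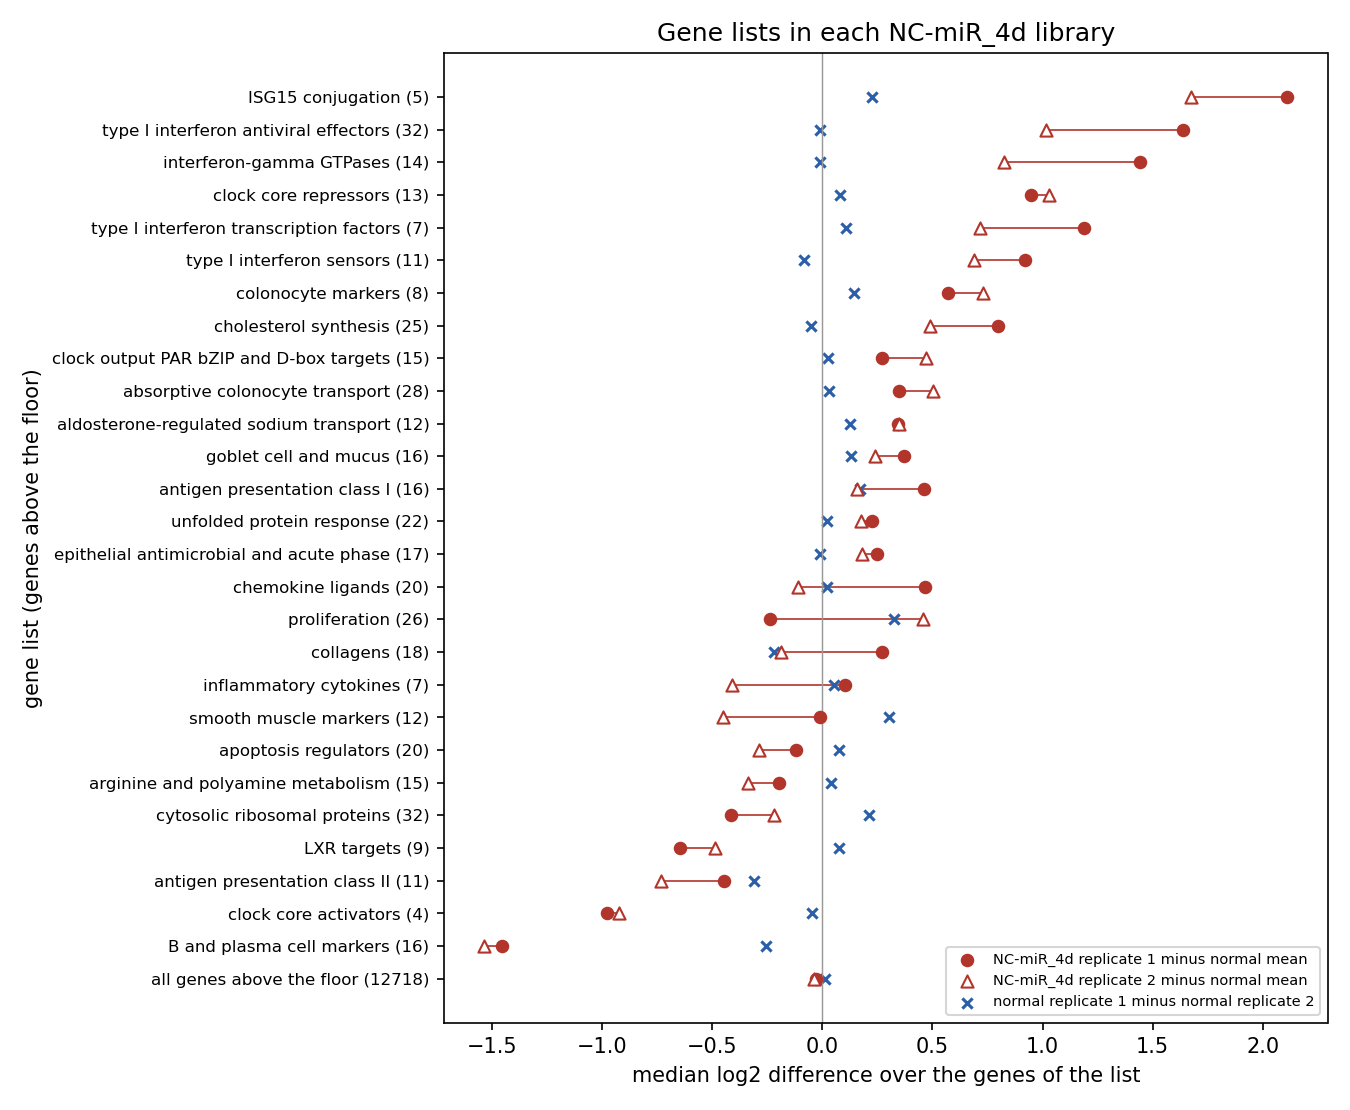
Median log2 difference (x axis) over the genes above the floor of 27 lists and of all genes (y axis, number of genes in brackets). Red circles and triangles are NC-miR_4d replicate 1 and replicate 2, each minus the normal mean, and blue crosses are normal replicate 1 minus replicate 2. The ISG15 list stands highest in both libraries, the interferon lists have replicate 1 above replicate 2, B cell markers stand lowest at -1.45 and -1.53, and the 2 libraries lie on opposite sides of 0 for proliferation (-0.239 and 0.459), chemokine ligands, collagens and inflammatory cytokines.

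Several other lists depended on which NC-miR_4d library was read. Proliferation genes had a median of -0.239 in replicate 1 and 0.459 in replicate 2, each minus the normal mean, with 0 of 26 called and 0 at an unadjusted p under 0.05. Smooth muscle markers had -0.01 and -0.451, and collagens 0.273 and -0.188, with 0 of 18 collagen genes called and 1 at an unadjusted p under 0.05. Mki67, a marker of cycling cells, had 0.00 and 0.83, against 0.08 and -0.16, and the stem cell receptor gene Lgr5 had -0.20 and 0.82, against -0.15 and -0.04. Their groups overlapped. Fatty acid oxidation genes had a median of -0.158, and for this list the NC-miR_4d libraries were close (-0.17 and -0.205, each minus the normal mean). There 0 of 22 were called, with 3 higher and 5 lower at an unadjusted p under 0.05 (799 and 1186 of all 12718 genes). Adipocyte markers were low in normal replicate 1 (median -1.11, against 0.05 in normal replicate 2, with 0.43 and -0.16 in NC-miR_4d), and 0 of 11 were called, with 0 at an unadjusted p under 0.05.

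The same NC-miR_4d libraries were also set against the DSS mice labelled NC-miR_2d (tissue on day 2, although the labels name injections on days 1, 2 and 3 for them as well) and against the mean of the DSS groups given miR-29a or miR-29b (tissue on day 4). These comparisons share the NC-miR_4d libraries with that against normal, so their values are given side by side only. Against NC-miR_2d, 2 of 13051 features were called (0.0153%), and against the miR-29 mean 1 (0.00766%). Of the 50 features called against normal, Snord16a passed in each of these, and 40 lay within 1 log2 of NC-miR_2d and 45 within 1 log2 of the miR-29 mean. Nearness of this kind was common, since only 196 of all 13051 features differed from NC-miR_2d by more than 1 log2. From the miR-29 mean 107 did so. Dbp differed from NC-miR_2d by -0.23 ± 0.19 and from the miR-29 mean by -0.42 ± 0.16 (adjusted p = 0.877 and 0.436), and Arntl by -0.06 ± 0.20 and 0.05 ± 0.17 (0.98 and 0.935). Isg15 had larger but uncalled differences of -2.01 ± 0.45 and 0.81 ± 0.39 (0.483 and 0.489), as had Oasl2 with -1.41 ± 0.39 and 1.21 ± 0.33 (0.535 and 0.404). For Aqp4 they were 0.97 ± 0.22 and 1.12 ± 0.19 (0.483 and 0.22), and for Rpl30 -1.36 ± 0.23 and -1.63 ± 0.20 (0.344 and 0.198). Differences that miss the threshold do not show that the DSS groups were alike.

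Over all 50 calls, 6 held whichever of the 10 libraries was left out. Of the 50, 9 held without NC-miR_4d replicate 1, 17 without NC-miR_4d replicate 2, 8 without normal replicate 1 and 6 without normal replicate 2. When only the 4 libraries compared were fitted, 12 of the 50 held.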

How the data were processed

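Colorectum of BALB/c mice was profiled by stranded mRNA sequencing in 5 groups of 2 libraries, per the labels' protocols. The submitters' processing notes name TopHat2 2.0.13, Bowtie2 2.2.3, SAMtools 0.1.19, Cuffnorm 2.2.1 and mm10. The column headed FPKM in the deposited files holds log2 values relative to a per-gene baseline. On a base-2 scale, 99.5% of 6022 values in 9 libraries fell on a 6-digit grid. A feature was taken as at the floor where at least 2 libraries shared its lowest value. The 13051 of 23284 features that exceeded the floor in both replicates of a group were fitted with limma 3.58.1 in R 4.3.3, as 5 group means over all 10 libraries, with Benjamini-Hochberg adjustment over all of them. Calls have an adjusted p under 0.05. Errors are limma standard errors from moderated variances, with 5 residual and 3.26 prior degrees of freedom. The planned log2 of FPKM plus a pseudocount was not used, since the values are logged already. Tested on simulated data with 13051 features, 69.4% of log2 changes of 1 and 95.4% of 2 were called, with 9.4 false calls per simulation. Each simulation held 100 changes of each size, with independent normal errors at the fitted variances and no values at the floor. The rates and false calls may therefore not carry over to the deposited values. The deposited files hold no counts, so depth and its precision are unknown.

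Genes named were called ones whose groups did not overlap, up to 20 largest rises and 20 largest falls without provisional names, up to 4 of smallest p in each list described, and a fixed set. Others (Bhlhe40, Cd79a, Cry1, Hlf, Ifi44, Irf1, Oas2, Slc16a1, Slc4a4, Slc9a3 and Usp2, and those marked in the text) were named after their values were seen. Members and lists were chosen with earlier results of these data known. Some genes selected by the rule are not reported here. Same-numbered libraries of NC-miR_4d and normal had deviations that correlated at -0.074 over 12718 genes and are not paired. Alternatives covered filtering, libraries fitted, scaling, variance moderation, the replicate block and each library left out.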

Additional observations from a re-analysis of the deposited data

Results flagged for a closer look

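A difference between day 4 and day 2 was called for Mir29c, the gene of a miR-29 family member. Its values were 0.05 and 2.04 in NC-miR_4d, while both NC-miR_2d libraries were at the floor, at -7.49 and -7.46. The difference of 8.52 ± 0.63 (limma adjusted p = 0.00834, n = 2 per group) makes Mir29c at least 367-fold higher in NC-miR_4d. Since libraries at the floor hardly vary, this p may be too small. Mir29c was above the floor in the other 8 libraries, and against normal the difference was -0.36 ± 0.63 (adjusted p = 0.828).

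Snord16a, which fell against normal, also differed between NC-miR_4d and the other DSS groups. Against NC-miR_2d, with values of 1.35 and 4.69, the difference was -9.8 ± 0.95 (limma adjusted p = 0.0357), at least 892-fold lower. Against the mean of the miR-29 groups, with 3.0 and 1.84 for miR-29a and 1.7 and 2.91 for miR-29b, it was -9.14 ± 0.83 (adjusted p = 0.0401), at least 565-fold lower. In each of these comparisons 1 group was at the floor in both libraries, so the p may be too small.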

How the results depend on the processing

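The direction of the called genes named here held in the alternatives run, but the count of 50 calls did not. It was 22 with no filter on low values, 20 with only the 4 libraries compared, and 6 to 82 with 1 library left out (6 without normal replicate 2, 10 without NC-miR_4d replicate 1 or normal replicate 1, 82 without either NC-miR_2d library). The replicate number as a block gave 30 calls, or 32 with only the 4 libraries, and such numbers are not shown to pair the libraries. Against NC-miR_2d the 2 calls became 1 with quantile normalization and 1 with robust moderation, and 0 to 94 with 1 library left out (94 without NC-miR_2d replicate 2). Against the miR-29 mean the 1 lower call became 0 with robust moderation, 0 to 5 with 1 library left out, and 1 higher and 0 lower with no filter on low values, so that Snord16a was no longer called. In the limma fits with all libraries, 837 and 1405 features had an unadjusted p under 0.05 in these comparisons. With 1 library left out the uncalled genes Il1b (-0.7 to 0.048), Lgr5 (-0.106 to 0.914), Retnlg (-1.007 to 0.305) and Ccl2 (-0.245 to 1.061) changed sign. Where a group keeps 1 library, it is assumed to vary like the others. Fits to the 4 libraries were not run for the other comparisons, nor other pseudocounts, since the values are logs. The cause of these changes was not tested.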
